A study of Sus scrofa with 14 samples.

Results

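The genes described here encode 10 integrin subunits that bind collagen or fibronectin, namely the alpha subunits ITGA1, ITGA2, ITGA5, ITGA8, ITGA10, ITGA11 and ITGAV and the beta subunits ITGB1, ITGB3 and ITGB5. They were taken by gene symbol from a table of raw read counts of 25880 genes, in which each of the 10 symbols stands in 1 row. All 10 had at least 10 reads summed over the libraries and so were among the 15707 genes tested. The study compared pig meniscus, the fibrocartilage pad of the knee, with articular cartilage, and its inner with its outer zone. Each zone was also compared with passaged cells of that zone, not matched by donor, all by sequencing polyadenylated RNA.

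The 14 libraries fall into 5 groups. Cartilage (n = 3) was cut at full thickness from the femur. Inner zone tissue (n = 3) came from the inner part of the medial meniscus and outer zone tissue (n = 3) from its rim. Passage 3 (P3) cells of the inner zone (n = 3) and of the outer zone (n = 2) were released from meniscus by pronase and collagenase and expanded on plastic. The animals were skeletally mature female pigs of 2 to 3 years from an abattoir, with no treatment or transgene. Tissue explants spent 3 days in serum-containing medium before freezing, so the tissue groups are cultured explants. RNA of tissue was extracted with TRIzol and a column and RNA of cells with a column alone. The paper states that cells and tissue were not matched by donor. Passaging therefore cannot be told apart from extraction or donor. Both zones were sampled from the same 3 menisci, but the numbers of the inner (2, 3, 5) and outer (2, 3, 6) libraries do not say which of them share a meniscus. Explants came from differing positions across the horns and midbody, so position varies within each meniscus tissue group. The paper says that the samples overlapping between zones were taken nearer the horns, without naming the libraries. The labels do not say which animal gave which library, and p-values therefore measure the spread between these samples.

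Integrins are receptors of 1 alpha and 1 beta chain that span the cell membrane and tie the surrounding matrix to the actin cytoskeleton. ITGA1, ITGA2, ITGA10 and ITGA11 carry an inserted domain that grips collagen through a metal ion, and each pairs with ITGB1. ITGA5, ITGA8 and ITGAV lack that domain and recognise the tripeptide arginine-glycine-aspartate (RGD) in fibronectin and related proteins. ITGA5 and ITGA8 pair with ITGB1, whereas ITGAV also pairs with ITGB3 and ITGB5. In cartilage, the receptor of ITGA10 with ITGB1 is known as a collagen II receptor of chondrocytes, and ITGA11 is known from fibroblasts that handle collagen I.

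The 4 collagen-binding alpha genes are told apart from the RGD-binding alpha genes by the coding sequence of the metal site. No other alpha gene was searched for this site. It is shown because ITGA10 and ITGA11 exchanged places between tissue and cells. The sequences run 5′ to 3′ on the coding strand of Sscrofa11.1 (RefSeq gene models), and capitals mark the codons of the aspartate and the serines that hold the metal.
ITGA1 (chr16:32206552-32206599, plus strand): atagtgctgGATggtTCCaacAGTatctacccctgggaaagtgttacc
ITGA2 (chr16:32382654-32382701, plus strand): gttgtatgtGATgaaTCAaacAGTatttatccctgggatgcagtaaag
ITGA10 (chr4:99426622-99426669, plus strand): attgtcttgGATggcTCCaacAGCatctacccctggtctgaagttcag
ITGA11 (chr1:166240324-166240371, minus strand): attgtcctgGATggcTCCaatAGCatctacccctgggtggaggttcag
ITGA10 and ITGA11 share 42 of these 48 bases (87.5%), and the other pairs share 62.5% to 72.9%. No such site was found in the coding sequences of ITGA5, ITGA8 or ITGAV. Over the whole translated models ITGA10 was 45.3% identical to ITGA11, compared with 37.8% to ITGA1 and 36.4% to ITGA2.

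For the RGD-binding alpha genes the coding sequence of the tail next to the membrane, a stretch found across alpha chains in general, is shown because ITGA8 and ITGA5 rose together. Capitals mark the codons of the short motif at the inner face of the membrane, searched as glycine and a pair of phenylalanines, any residue and arginine, and each coding sequence is joined across an intron.
ITGA5 (chr5:19588448-19589085, minus strand): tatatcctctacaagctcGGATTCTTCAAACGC
ITGA8 (chr10:46298890-46300657, plus strand): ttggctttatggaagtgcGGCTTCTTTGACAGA
ITGAV (chr15:91707814-91708097, plus strand): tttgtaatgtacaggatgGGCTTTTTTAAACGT
Their translated models were 46.7% to 48.5% identical to each other, and 25.7% to 29.2% identical to those of the collagen-binding genes.

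Library totals ranged from 24440213 to 43304412 reads, and levels are given as CPM, the reads of a gene per 1000000 reads of the library, with edgeR's TMM scaling of the total. Markers of 5 cell types were summed per library to check the labels. Chondrocyte markers summed to 36324 to 95022 CPM in cartilage, 5948 to 32408 CPM in inner tissue, 3025 to 12100.1 CPM in outer tissue and 194 to 544 CPM in P3 cells. The 4 fibrous tissue markers summed to 74287 to 113620 CPM in P3 cells against 4508 to 9149 CPM in all tissues. Most of that P3 sum was COL1A1, with a mean of 105258 CPM in inner P3 cells. DCN went the other way, from 4502 CPM in inner tissue to 623 CPM in inner P3 cells. Of the 4, 2 were called higher and 1 lower between these groups, beside 25.7% of all tested genes called. Endothelial markers summed to 167 and 427 CPM in outer tissue 6 and 3, but to 9.44 CPM in outer tissue 2, which stood apart from its group, and to 3.44 to 15.0 CPM elsewhere. The VWF row in that sum carries an identifier that the RefSeq table gives to ANO2. In bulk RNA, fewer cells of a type cannot be told apart from less RNA per cell.

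**Figure D1:**
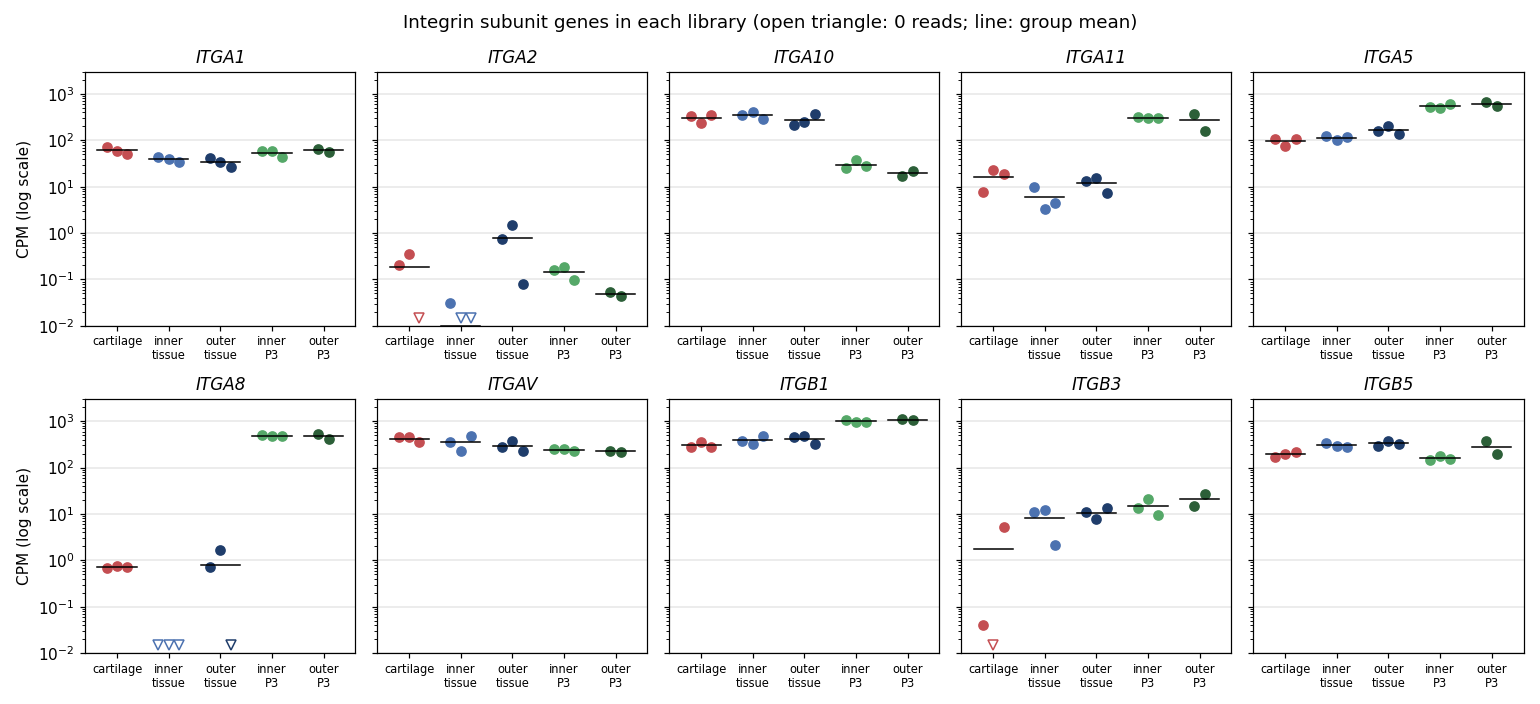
Level of each integrin gene in each of the 14 libraries, in CPM on a log axis, by group. Filled points are libraries, open triangles are libraries with 0 reads and lines are group means. ITGA8 and ITGA11 are far higher and ITGA10 far lower in every P3 library than in any tissue library.

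Between tissue and P3 cells, 5 of the 10 genes were called, the same 5 in both zones. ITGA8, ITGA11, ITGA5 and ITGB1 rose and ITGA10 fell. Calls required an adjusted p under 0.01 (edgeR's quasi-likelihood F test, Benjamini-Hochberg over all tested genes) together with an absolute log2 fold change above 1. Of all tested genes 25.7% were called between inner P3 cells and inner tissue and 16.7% between outer P3 cells and outer tissue. The median log2 fold change of the 10 genes was 1.07 in the inner zone and 0.91 in the outer zone, beside 0.015 and -0.012 over all tested genes. All 5 calls in both zones held under each alternative run, including the libraries left out in turn. Among the alternatives, an adjusted p under 0.05 at any fold change keeps every call by its definition. The 5 genes were also called between P3 cells and cartilage, with the same signs, where 34.9% of all genes were called. These comparisons share their P3 libraries.

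ITGA10, the collagen II receptor chain of chondrocytes (chr4:99422469-99440756), was the most abundant collagen-binding alpha gene in every tissue library. Its level was 331, 242 and 350.5 CPM in cartilage 1, 2 and 3, then 357, 405 and 294 CPM in inner tissue 5, 2 and 3, and 209.9, 249.5 and 371 CPM in outer tissue 6, 3 and 2. In P3 cells it was 24.7, 37.6 and 28.0 CPM in inner 147, 148 and 149, and 17.4 and 21.7 CPM in outer 147 and 148. The tissue groups overlapped, while every P3 library lay below every tissue library. It fell by 3.55 ± 0.26 (SE) on the log2 scale in the inner zone (adjusted p = 8.74e-07, edgeR) and by 3.82 ± 0.31 in the outer zone (adjusted p = 5.47e-06, edgeR). Set against cartilage, P3 cells were lower by 12.7-fold (adjusted p = 7.23e-08, edgeR). The 3 tissues overlapped, with log2 fold changes of 0.19 ± 0.23 for inner tissue and -0.15 ± 0.23 for outer tissue against cartilage.

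ITGA11, the collagen I receptor chain of fibroblasts (chr1:166186601-166311046), moved the other way. It stood at 7.81, 22.4 and 19.2 CPM in cartilage 1, 2 and 3, at 9.95, 3.35 and 4.55 CPM in inner tissue 5, 2 and 3, and at 13.6, 15.6 and 7.33 CPM in outer tissue 6, 3 and 2. Inner P3 cells 147, 148 and 149 held 322, 305 and 299 CPM, and outer P3 cells 147 and 148 held 379 and 158 CPM. All P3 libraries lay above all tissue libraries. The rise was 51.7-fold in the inner zone (log2 5.69 ± 0.55, adjusted p = 5.34e-06, edgeR) and 21.95-fold in the outer zone (log2 4.46 ± 0.54, adjusted p = 6.45e-05, edgeR). Single libraries moved these values, to log2 6.29 without inner tissue 5 and to log2 3.69 without outer P3 147. Among the tissues, inner tissue was at 2.76-fold less than cartilage (log2 -1.46, adjusted p = 0.0339, edgeR), with overlapping libraries and no call. DESeq2 called this difference (log2 -1.49, adjusted p = 0.00537), and without inner tissue 5 it was log2 -2.06 in edgeR. The outer P3 pair spread by more than the inner P3 trio, and their zones overlapped.

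ITGA1, a collagen receptor chain with a preference for collagen IV (chr16:32130265-32309917), varied by 1.79-fold between the highest and the lowest group mean. Its exons overlap those of PELO on the same strand, so part of its reads are uncertain in origin. Cartilage held 49.6 to 73.5 CPM, inner tissue 33.8 to 44.8 CPM, outer tissue 26.0 to 41.4 CPM, inner P3 cells 43.5 to 60.2 CPM and outer P3 cells 54.98 to 66.3 CPM. Outer tissue lay below cartilage without overlap (log2 -0.84 ± 0.20, adjusted p = 0.00541, edgeR), which is under the 2-fold threshold. Outer P3 cells lay above outer tissue (log2 0.84 ± 0.22, adjusted p = 0.00913, edgeR), again under 2-fold. Without outer tissue 6 both fold changes passed the threshold, at log2 -1.005 (adjusted p = 0.00498, edgeR) and 1.004 (adjusted p = 0.00569, edgeR).

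ITGA2, the collagen receptor chain of platelets and epithelia (chr16:32336240-32440311), was close to the detection limit. Its exons overlap MOCS2 on the opposite strand, and the strand setting of the counting is not given in the sources used here. It had 5, 8 and 0 reads in cartilage 1, 2 and 3, and 1, 0 and 0 reads in inner tissue 5, 2 and 3. Outer tissue 6, 3 and 2 had 31, 52 and 2 reads. P3 cells had 5, 8 and 4 reads in inner 147, 148 and 149, and 2 reads in each outer library. Outer tissue thus held 77.4 times the inner tissue level by pooled reads, with a 95% interval of 13.5 to 3092 for counting error only. The libraries of the zones did not overlap, but the adjusted p of 0.0664 (edgeR) made no call.

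Per kilobase of RefSeq exon, these levels can be set beside each other, though the authors counted on Ensembl models whose lengths may differ. ITGA10 made up 76.9% to 92.9% of the summed collagen-binding alpha transcripts in tissue and 2.93% to 7.74% in P3 cells. The share of ITGA11 went from 1.07% to 9.94% in tissue to 78.5% to 89.2% in P3 cells, with no overlap for either gene. ITGA1 kept a share of 4.56% to 13.1% in tissue and 6.39% to 13.7% in P3 cells, and ITGA2 never exceeded 0.339%. The sum of the 4 genes was 35.5 to 60.2 CPM per kb in tissue and 38.5 to 81.5 CPM per kb in P3 cells, with outer P3 148 lowest of the cells. These shares are a description without a test.

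**Figure D2:**
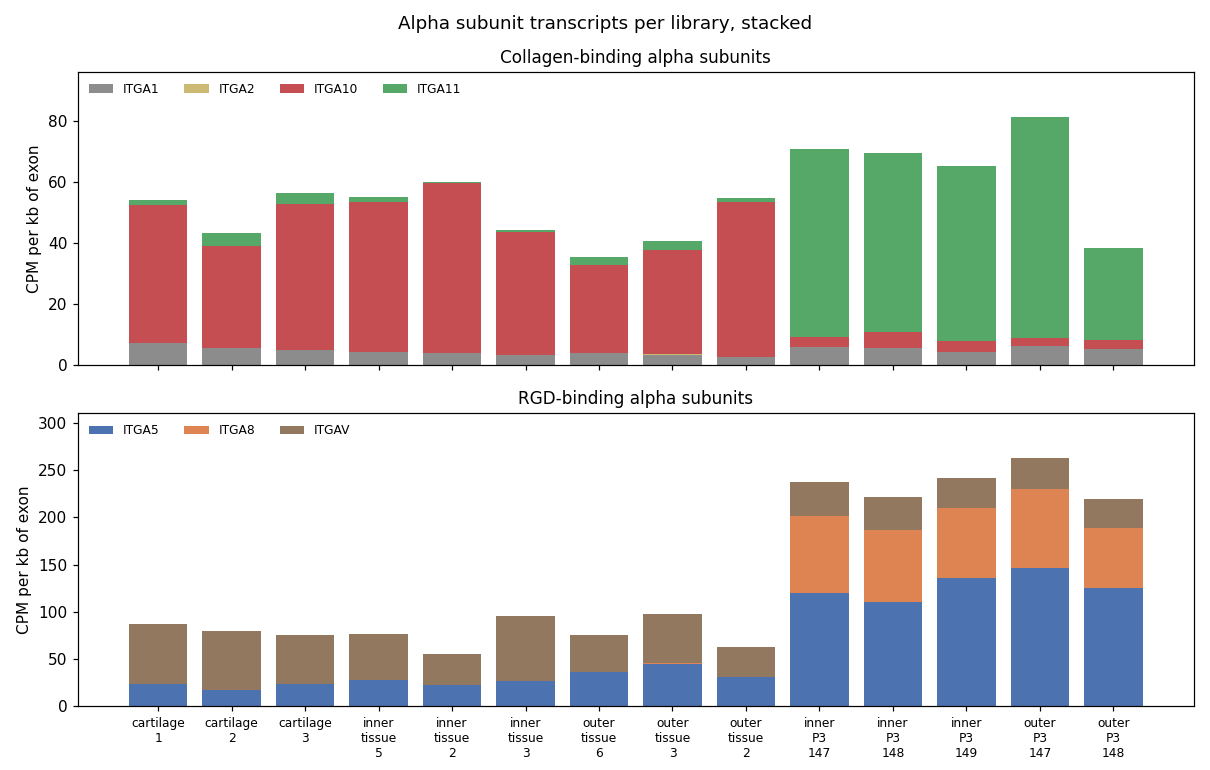
Stacked bars of alpha subunit transcripts per library in CPM per kb of RefSeq exon, with the collagen-binding genes above and the RGD-binding genes below. ITGA10 fills 76.9% to 92.9% of the upper bars in tissue and ITGA11 78.5% to 89.2% in P3 cells, while ITGA8 is visible in the lower bars of P3 cells alone, at 29.3% to 34.5%.

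ITGA8, the RGD-binding chain known from smooth muscle and other contractile cells and from kidney mesenchyme (chr10:46132887-46303659), showed the largest change of the 10 genes. It had 17, 17 and 15 reads in cartilage 1, 2 and 3, and 0 reads in each of the 3 inner tissue libraries. Outer tissue 6, 3 and 2 had 30, 58 and 0 reads. P3 cells had 16337, 21009 and 19676 reads in inner 147, 148 and 149, and 19753 and 18801 reads in outer 147 and 148. No P3 library came near any tissue library. In CPM the P3 cells stood at 490.3 ± 24.6 (SD, n = 3) for the inner zone and 470 ± 88.2 (SD, n = 2) for the outer zone, and cartilage at 0.723 ± 0.0384 (SD, n = 3).

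Against inner tissue without a read, the inner P3 level was at least 15000-fold higher, with 3 reads over the group as the floor (adjusted p = 1.37e-06, edgeR). In the outer zone the rise was 562-fold (log2 9.13 ± 0.71, adjusted p = 9.82e-06, edgeR), or log2 10.11 without outer tissue 3, and P3 cells exceeded cartilage by 660.5-fold (log2 9.37 ± 0.71, adjusted p = 1.06e-06, edgeR). The smooth muscle and pericyte markers summed to 352 to 893 CPM in P3 cells and 328 to 1411 CPM in tissue. Of the 8, 7 were called between inner P3 cells and inner tissue (5 higher, 2 lower), beside 25.7% of all tested genes. CSPG4 held most of the tissue sum, with group means of 476 to 924 CPM, and stood at 80.2 CPM in inner P3 cells. By contrast CNN1 went from 0 to 132 CPM and LMOD1 from 0.454 to 100 CPM between inner tissue and inner P3 cells. The part of these markers in the rise of ITGA8 was not tested.

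ITGA5, the main fibronectin receptor chain (chr5:19587361-19610580), rose in P3 cells from a level already well detected. Cartilage 1, 2 and 3 held 105, 76.2 and 106 CPM, inner tissue 5, 2 and 3 held 124, 101 and 119.7 CPM, and outer tissue 6, 3 and 2 held 162, 202 and 140.3 CPM. In P3 cells it was 535, 493 and 607 CPM in inner 147, 148 and 149, and 655 and 559 CPM in outer 147 and 148. Cells and tissue did not overlap. The rise was 4.75-fold in the inner zone (log2 2.25 ± 0.18, adjusted p = 1.49e-06, edgeR) and 3.61-fold in the outer zone (log2 1.85 ± 0.19, adjusted p = 2.32e-05, edgeR). Outer tissue also lay above cartilage in all libraries, by log2 0.81 ± 0.17 (adjusted p = 0.00295, edgeR), which is under 2-fold and so no call.

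ITGAV, the alpha chain of the vitronectin receptors (chr15:91604666-91711843), was the most abundant RGD-binding alpha gene in every tissue library per kilobase. Its range was 365 to 453 CPM in cartilage, 231 to 492 CPM in inner tissue, 227 to 370.1 CPM in outer tissue, 229 to 256 CPM in inner P3 cells and 216 to 233 CPM in outer P3 cells. Neighbouring groups in this order overlapped each time. P3 cells lay below cartilage by log2 -0.84 ± 0.21 (adjusted p = 0.00377, edgeR), short of 2-fold. The differences from inner and outer tissue were smaller, at log2 -0.54 ± 0.24 (adjusted p = 0.0733, edgeR) and -0.37 ± 0.27 (adjusted p = 0.291, edgeR).

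The share of ITGAV among the RGD-binding alpha transcripts was 50.4% to 78.5% in tissue and 12.5% to 15.9% in P3 cells. ITGA8 held 0% to 0.267% in tissue and 29.3% to 34.5% in P3 cells, and ITGA5 21.4% to 49.6% and 49.7% to 56.9%. The summed level of these 3 genes was 54.9 to 97.3 CPM per kb in tissue and 219 to 263 CPM per kb in P3 cells. Because the collagen-binding sum grew less, its share of all 7 alpha genes was 29.5% to 52.3% in tissue and 14.9% to 23.8% in P3 cells, without overlap.

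ITGB1, the beta chain shared by 6 of these alpha chains and able to pair with ITGAV as well (chr10:56078393-56130608), was the most abundant member by CPM in P3 cells. Cartilage 1, 2 and 3 held 277, 361 and 282 CPM, inner tissue 5, 2 and 3 held 371, 326 and 478 CPM, and outer tissue 6, 3 and 2 held 449, 471 and 321 CPM. Inner P3 cells 147, 148 and 149 held 1039, 977 and 947 CPM and outer P3 cells 147 and 148 held 1120 and 1054 CPM. The tissues overlapped and every P3 library was higher. ITGB1 rose 2.52-fold in the inner zone (log2 1.335 ± 0.19, adjusted p = 8.03e-05, edgeR) and 2.63-fold in the outer zone (log2 1.39 ± 0.20, adjusted p = 0.000227, edgeR). The ratio of ITGB1 to the summed level of its 6 alpha partners, both per kilobase, ran from 0.450 to 0.861 in tissue and from 0.442 to 0.594 in P3 cells, with overlap.

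ITGB3, the beta chain of the platelet and osteoclast integrins (chr12:16694466-16752228), varied most within cartilage. Cartilage 1, 2 and 3 had 1, 0 and 111 reads, inner tissue 5, 2 and 3 had 365, 367 and 61, and outer tissue 6, 3 and 2 had 458, 273 and 332. P3 cells had 423, 902 and 406 reads in inner 147, 148 and 149, and 555 and 1263 in outer 147 and 148. Inner tissue and cartilage overlapped through cartilage 3 alone. None of its fold changes was called, with log2 2.28 ± 1.07 (adjusted p = 0.128, edgeR) for inner tissue and 2.63 ± 1.08 (adjusted p = 0.0694, edgeR) for outer tissue against cartilage. Without cartilage 3 it was called in both, at log2 8.40 (adjusted p = 0.00106, edgeR) and 8.75 (adjusted p = 0.000547, edgeR), and between P3 cells and cartilage, at log2 9.45 (adjusted p = 4.08e-05, edgeR), so 1 library decides these calls. The macrophage and leukocyte markers of cartilage 3 summed to 73.1 CPM, beside 67.2 and 49.6 CPM in cartilage 1 and 2, and their part in this was not tested.

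ITGB5, another partner of ITGAV (chr13:135468111-135587483), was higher in meniscus tissue than in cartilage in every library. It ranged from 166 to 214 CPM in cartilage, from 277 to 346 CPM in inner tissue and from 291 to 376 CPM in outer tissue. The differences from cartilage were under 2-fold, at log2 0.67 ± 0.21 (adjusted p = 0.0288, edgeR) and 0.78 ± 0.21 (adjusted p = 0.0104, edgeR). Inner P3 cells fell below inner tissue, at 146 to 179 CPM, by log2 -0.94 ± 0.21 (adjusted p = 0.00239, edgeR), just short of a call. Without inner tissue 3 or without inner P3 148 it was called, at log2 -1.01 (adjusted p = 0.00358, edgeR) and -1.03 (adjusted p = 0.00548, edgeR). Outer P3 cells 147 and 148 lay far apart at 369 and 192 CPM, so the outer zone gave log2 -0.24 ± 0.24 (adjusted p = 0.435, edgeR).

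**Figure D3:**
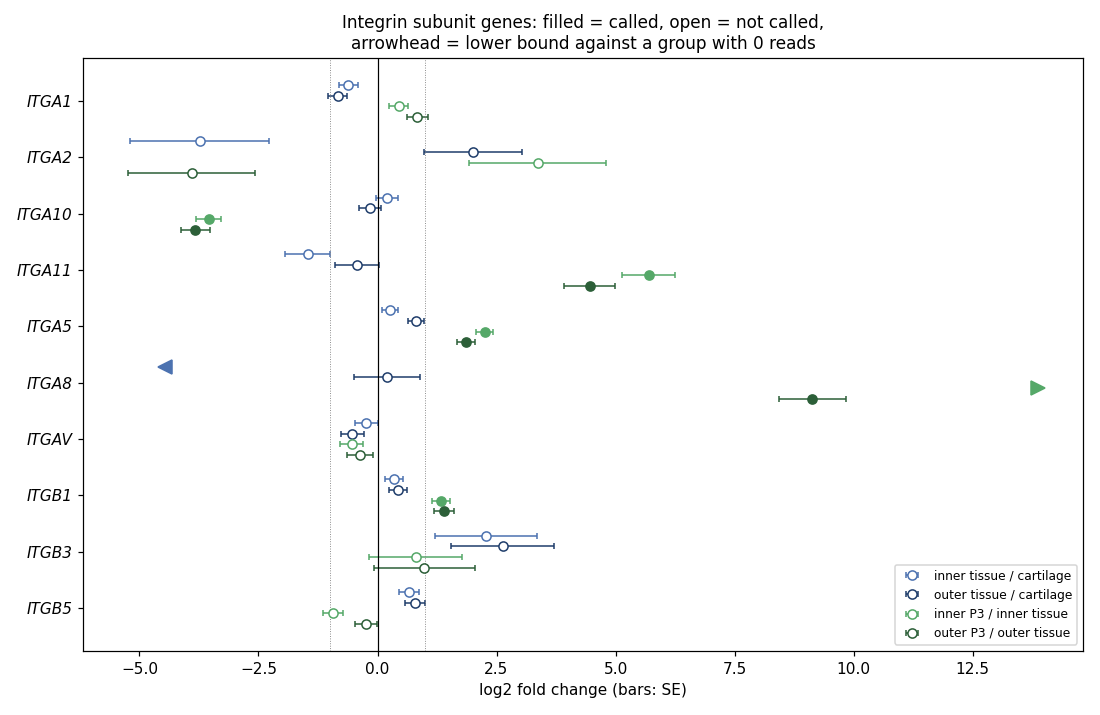
Log2 fold changes with SE of the 10 genes in both meniscus zones against cartilage (blue) and in P3 cells against their zone (green). Filled points were called, open points were not, and the ITGA8 arrowheads are lower bounds against inner tissue with 0 reads. The passaging effects of ITGA8, ITGA11, ITGA5, ITGB1 and ITGA10 are filled in both zones.

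The share of these genes called between meniscus tissue and cartilage was near or below that of all tested genes. Between inner tissue and cartilage 1 of 10 was called, which is ITGA8 at 0 against 49 reads, at least 22.2-fold lower (adjusted p = 0.00976, edgeR), beside 9.05% of all tested genes. That call was lost when any of the 6 libraries was left out, with adjusted p of 0.0205 to 0.0266 (edgeR). Between outer tissue and cartilage edgeR called 0 of 10, beside 15.1% of all genes, and 6 of 10 had an unadjusted p under 0.05, beside 48.7% of all tested genes, while DESeq2 also called 0. Without outer tissue 6 the call of ITGA1 given above came in, and without cartilage 3 that of ITGB3. The median log2 fold change of the 10 was -0.02 for inner tissue and 0.32 for outer tissue, beside 0.0014 and 0.057 over all tested genes.

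Between the zones of the tissue edgeR called 0 of 10, beside 0.0318% of all genes, although the unadjusted p was under 0.05 for 4 of 10, beside 20.3% of all tested genes. With the shared replicate number as a block, edgeR called ITGA8 (log2 7.82, adjusted p = 0.00581) and 89 genes in all. Numbers 2 and 3 alone occur in both zones. For ITGA8, outer against inner reads were 0 against 0 at number 2 and 58 against 0 at number 3. The blocked call of ITGA8 therefore rests on number 3 alone. By contrast DESeq2 called ITGA8 (adjusted p = 0.000394) and ITGA2 (adjusted p = 0.00748). ITGA8 was at least 26.7-fold higher in outer than in inner tissue by pooled reads (88 against 0), with adjusted p = 0.0621 in edgeR. Outer tissue 2 had 0 reads of ITGA8 and 2 of ITGA2, the lowest of its group for both. Without it, edgeR called ITGA8 (log2 8.30, adjusted p = 0.00036) and ITGA2 (log2 6.27, adjusted p = 0.00803). The endothelial markers summed to 427 CPM in outer tissue 3, 167 CPM in outer tissue 6 and 9.44 CPM in outer tissue 2, the order of both genes. That order was not particular to endothelial markers. Among the smooth muscle and pericyte markers, MCAM (71.1, 24.4 and 0.486 CPM) and NOTCH3 (37.7, 15.8 and 3.20 CPM) shared it. The sum of that list did not, at 640, 328 and 885 CPM in outer tissue 3, 6 and 2. Over all tissue libraries 1 to 4 of the 7 endothelial markers had 0 reads, and EGFL7 was at 0 in all of them. The part of either cell type in the difference was not tested.

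**Figure D4:**
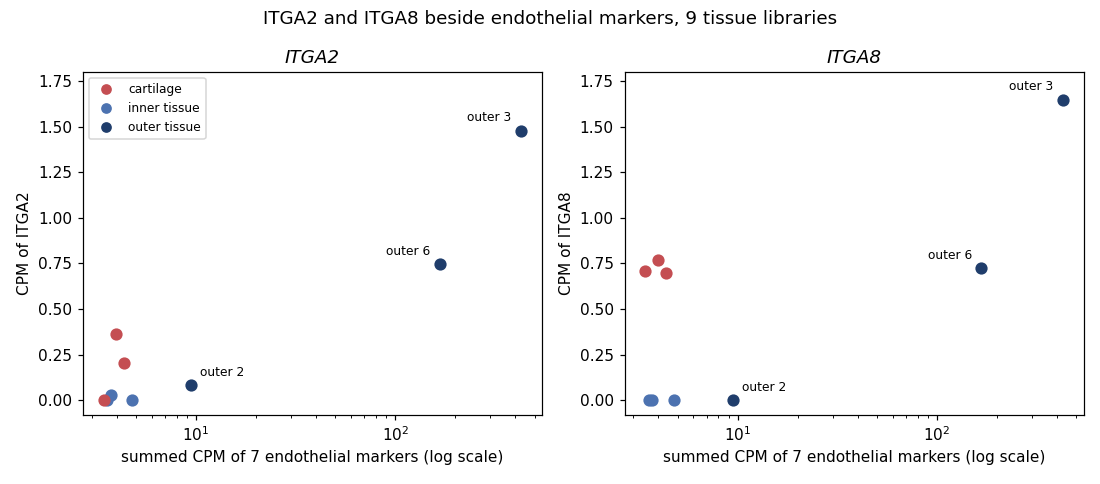
CPM of ITGA2 (left) and ITGA8 (right) against the summed CPM of 7 endothelial markers on a log axis, in the 9 tissue libraries coloured by group. Outer tissue 3 is highest on both axes and outer tissue 2 lies near the inner tissue libraries, while cartilage holds ITGA8 at 0.695 to 0.767 CPM with endothelial sums of 3.44 to 4.38 CPM.

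No member was called between the zones of the P3 cells. EdgeR called 0 of 10 between outer and inner P3 cells, beside 0% of all genes, and 2 of 10 had an unadjusted p under 0.05, beside 3.22% of all tested genes, while DESeq2 called 0. The libraries of the zones did not overlap for 4 of 10, ITGA2, ITGA10, ITGB1 and ITGB5, beside 22.9% of all tested genes. Of lowest p were ITGB5 at log2 0.81 ± 0.23 (adjusted p = 1, edgeR) and ITGA10 at log2 -0.62 ± 0.27 (adjusted p = 1, edgeR). ITGA8 was at log2 -0.06 ± 0.53 and ITGA11 at -0.20 ± 0.50. With 2 outer libraries these errors leave room for differences of either sign.

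The passaging effect was also compared between the zones with an interaction term. EdgeR called 0 of 10, beside 0% of all genes, and DESeq2 also called none of the members. The unadjusted p was under 0.05 for 3 of 10, beside 7.47% of all tested genes. The passaging effect on ITGA8, outer minus inner zone, was log2 -7.85 ± 1.92 (adjusted p = 0.541, edgeR), a value that rests on the inner tissue libraries without reads. Without outer tissue 2 it was called at log2 -8.37 (adjusted p = 0.00504, edgeR).

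The other integrin subunits, 14 of a list of 16 tested, were called in 7 cases between inner P3 cells and inner tissue (5 higher, 2 lower) and in 4 between outer P3 cells and outer tissue (2 higher, 2 lower), beside 25.7% and 16.7% of all tested genes. Their median log2 fold change was 0.53 and -0.60, beside 0.015 and -0.012 over all tested genes. ITGA6, a laminin receptor chain, was at 114 ± 2.10 CPM (SD, n = 3) in inner tissue and 20.7 ± 8.84 CPM (SD, n = 3) in inner P3 cells and fell in both zones, at log2 -2.46 (adjusted p = 0.000158, edgeR) and -2.98 (adjusted p = 0.000311, edgeR). ITGB8, a partner of ITGAV, fell in both zones, at log2 -1.785 (adjusted p = 0.000432, edgeR) and -1.97 (adjusted p = 0.00112, edgeR). ITGAL, the alpha chain of a leukocyte integrin, rose by log2 3.63 and 2.45 (adjusted p = 7.73e-05 and 0.00209, edgeR), to means of 20.3 and 25.2 CPM in inner and outer P3 cells. There the leukocyte marker PTPRC had 0 reads and ITGB2 averaged 1.24 and 1.92 CPM. Of the 6 macrophage and leukocyte markers 0 were called higher in P3 cells of the inner or outer zone, beside 13.6% and 8.36% of all tested genes. The source of the ITGAL reads was not tested. ITGA9, which binds tenascin and osteopontin, rose by log2 2.44 and 1.45 (adjusted p = 0.000116 and 0.00794, edgeR). It was also higher than cartilage in inner tissue (log2 3.475, adjusted p = 0.000265, edgeR) and outer tissue (log2 4.92, adjusted p = 2.24e-05, edgeR). Outer tissue had 4 of the 14 called higher than cartilage, ITGA4, ITGA7, ITGA9 and ITGB4, beside 8.56% of all tested genes, and inner tissue only ITGA9, beside 4.45%. The rows named ITGA2B and ITGAX carry identifiers that the RefSeq table gives to GPATCH8 and ITGAM, and no value is given for them, although the former is 1 of the 5 counted as higher in inner P3 cells.

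Of 24 ligand genes 20 were tested, and 18 of them were called between inner P3 cells and inner tissue (14 higher, 4 lower) and 16 in the outer zone (12 higher, 4 lower), beside 25.7% and 16.7% of all tested genes. The median log2 fold change was 2.86 in the inner and 2.21 in the outer zone. COL1A1, a chain of collagen I, went from 9.55 ± 6.73 CPM (SD, n = 3) in inner tissue to 105258 ± 6996 CPM (SD, n = 3) in inner P3 cells, a log2 rise of 13.43 (adjusted p = 1.06e-06, edgeR). COL1A2, its partner chain, rose by log2 5.37 and 4.10 in the inner and outer zones (adjusted p = 5.16e-06 and 7.6e-05, edgeR), and COL3A1, the chain of collagen III, by log2 3.11 and 3.60 (adjusted p = 0.00011 and 0.000138, edgeR). FN1, the gene of fibronectin, fell from 17837 ± 5243 to 5363 ± 845 CPM in the inner zone (log2 -1.73, adjusted p = 0.00465, edgeR), while ITGA5 and ITGA8 rose in the same libraries. FN1 fell in the outer zone too (log2 -1.96, adjusted p = 0.00835, edgeR). COL2A1, the gene of collagen II, is named because ITGA10 binds its product, a choice made after its values were seen. It was at 9289 ± 7576 CPM (SD, n = 3) in inner tissue and 23.9 ± 14.4 CPM (SD, n = 3) in inner P3 cells, at log2 -8.605 (adjusted p = 7.08e-05, edgeR).

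Among 22 adaptor and signalling genes, all tested, 11 were called in each zone between tissue and P3 cells, 9 higher and 2 lower in the inner and 8 higher and 3 lower in the outer zone, beside 25.7% and 16.7% of all tested genes. Their median log2 fold change was 0.69 and 0.80. VCL (vinculin), which ties talin to actin, rose by log2 3.30 in the inner zone and 2.88 in the outer zone (adjusted p = 1.15e-06 and 1.04e-05, edgeR). ACTN1, an actin crosslinker, rose by log2 2.88 and 2.25 (adjusted p = 1.77e-05 and 0.000298, edgeR). TLN1 (talin), which switches integrins on through the beta tail, rose by log2 1.62 and 1.395 (adjusted p = 1.82e-05 and 2e-04, edgeR). PARVA (parvin), a partner of the integrin-linked kinase, rose by log2 1.19 and 1.08 (adjusted p = 3.77e-05 and 0.000295, edgeR). Between meniscus tissue and cartilage 1 of the 22 was called for the inner and 3 for the outer zone (4.55% and 13.6%), shares near or below the 9.05% and 15.1% of all tested genes. The gene of the inner zone, SRC, a kinase of focal adhesions, was lower than in cartilage (log2 -1.13, adjusted p = 0.00428, edgeR).

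Of the other collagen receptors 3 of 5 were tested, DDR1, DDR2 and MRC2. DDR2, a tyrosine kinase receptor of fibrillar collagen, was at 419 ± 107 CPM (SD, n = 3) in inner tissue and 144 ± 3.65 CPM (SD, n = 3) in inner P3 cells, at log2 -1.54 (adjusted p = 2.78e-05, edgeR). DDR1, its relative, rose in the outer zone by log2 1.48 (adjusted p = 0.00058, edgeR). Each moved the same way in the other zone, without a call. Group means of DDR2 were 270 CPM in outer tissue and 145 CPM in outer P3 cells. Those of DDR1 were 17.5 CPM in inner tissue and 30.2 CPM in inner P3 cells. MRC2, an uptake receptor of collagen, was called in none of the comparisons.

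For the 3 members whose group means ranged most, the genes of most similar pattern were found by the root mean square difference of centred log2 CPM over the 14 libraries, among 11044 genes with a mean of at least 1 CPM. The libraries fall into tissue and cell clusters, so the likeness is a description. ITGA8 was closest to CNN1, ACTA2 and NTNG2, at 1.095, 1.53 and 1.62 log2 units. CNN1 (calponin) and ACTA2 (smooth muscle actin) are genes of contractile cells. CNN1 had a mean of 0 CPM in inner tissue and 132 CPM in inner P3 cells, and ACTA2 0.778 and 3892 CPM. ITGA11 was closest to ADAM19, TPM1 and SYNC, at 0.573, 0.617 and 0.686 log2 units, of which TPM1 (tropomyosin) went from 67.9 CPM in inner tissue to 2487 CPM in inner P3 cells. ITGB3 was closest to TMEM151A, NEIL3 and FAM189A2, at 1.415, 1.45 and 1.48 log2 units, all of low level and at 0.0314 to 0.0472 CPM in cartilage.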

How the data were processed

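Polyadenylated RNA of 14 porcine libraries was prepared with a stranded kit and sequenced. The deposited table holds raw counts of reads per gene, which the authors made by trimming (Trim Galore, cutadapt), alignment to Sscrofa11.1 with Ensembl release 91 models (STAR), restriction to single locations and counting with HTSeq. Tool versions and the strand setting are not given in the sources used here. The deposited normalized tables, DESeq2-scaled values made by the authors, were not used.

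From the counts, genes with at least 10 reads in all were tested with edgeR 4.0.16 in R 4.3.3 (TMM, 1 mean per group, all 14 libraries). A call needed an adjusted p under 0.01 and an absolute log2 fold change over 1. The SE is the fold change divided by the square root of F. Intervals of ratios and floors of 3 reads cover counting error only, since PCR reads without molecular identifiers are not independent molecules. Exon lengths, positions and sequences came from the RefSeq annotation of the same assembly. The tests were tried on simulated counts.

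Members and lists were chosen with earlier results of these data known. All 10 members were named, then for the 3 with the widest group means the 3 most similar genes each, and of each list some of the up to 4 called genes of highest mean over the libraries. Not matched by symbol were ITGAD, ITGAM, COL4A1, CCN1, CCN2, LAIR1, CLDN5 and COL9A2, while COL6A2 and EGFL7 had 0 reads. Alternatives were RLE size factors, DESeq2 1.42.0, filterByExpr, no filter, only the libraries of a comparison, an adjusted p under 0.05 at any fold change, each library left out, and a replicate block.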

Additional observations from a re-analysis of the deposited data

Results flagged for a closer look

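The passaging effect on ITGA2 stood out because its libraries moved in opposite directions in the zones. In the inner zone all P3 libraries (4 to 8 reads) lay above all tissue libraries (0 or 1 read). In the outer zone both P3 libraries (2 reads each) lay below all tissue libraries in CPM (31, 52 and 2 reads). The difference of the log2 fold changes, outer minus inner, was -7.27 ± 1.94 (SE), and its interaction test did not pass (adjusted p = 0.574, edgeR). Few reads carry it, and the value of the outer zone leans on outer tissue 3 and 6, whose endothelial markers summed to 427 and 167 CPM. Without outer tissue 2, ITGA2 was called lower in outer P3 cells than in outer tissue (log2 -4.42, adjusted p = 0.00983, edgeR), from log2 -3.90 (adjusted p = 0.0332, edgeR) with it. The part of endothelial cells in the difference was not tested.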

How the results depend on the processing

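The calls of ITGA5, ITGA8, ITGA10, ITGA11 and ITGB1 between P3 cells and tissue of either zone, and between P3 cells and cartilage, held under all alternatives run, with the highest adjusted p at 0.00793 (ITGB1, outer zone, edgeR with only the libraries of the comparison). The call of ITGA8 between inner tissue and cartilage was kept in 6 of 13 and lost in the 6 fits without a library and under the replicate block (adjusted p = 0.118, edgeR). Both statements count the alternative of an adjusted p under 0.05 at any fold change, which keeps every call by its definition. The cause of the changes below was not tested.

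With DESeq2, ITGA8 and ITGA11 were called between inner tissue and cartilage, where its count over all genes is not given here. DESeq2 called ITGA8 and ITGA2 between the zones, where 348 genes passed in place of 5. In all, 10 genes passed between P3 zones and 17 in the interaction. With only the libraries of a comparison, 913 genes were called between inner tissue and cartilage, 1548 between outer tissue and cartilage, 0 between the zones and 1515 between outer P3 cells and outer tissue. At an adjusted p under 0.05 and any fold change, the genes numbered 4772, 6284, 120, 8169, 6237 and 9846 for inner tissue and outer tissue against cartilage, outer against inner tissue, inner and outer P3 cells against their tissue, and P3 cells against cartilage, and members numbered 4 and 3 in the first 2 of these.

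The replicate block, with the numbers shared between groups as the block, called 389 genes and 0 members between inner tissue and cartilage, 600 genes between outer tissue and cartilage, 89 genes and 1 member (ITGA8) between the zones, 14 genes between P3 zones and 20 in the interaction. It turned ITGA8 to -1.04 and ITGA10 to 0.040 (log2) in outer tissue against cartilage, ITGB1 to -0.029 between the zones and ITGB3 to -0.65 in the interaction. Same-numbered inner and outer libraries deviated together with correlations of 0.269 and 0.112 in tissue and 0.166 and 0.213 in cells, and those with cartilage with -0.0838 to 0.0236. Both zones were sampled from the same menisci, but which libraries share one is not stated, so it is unknown whether equal numbers mark a meniscus. The blocked call of ITGA8 between the zones came from number 3 alone, with 58 reads in outer and 0 in inner tissue.

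Leaving out each library in turn gave 913 (without cartilage 3) to 1425 genes and 0 to 1 members between inner tissue and cartilage, 0 to 1 members between outer tissue and cartilage, 0 to 363 genes and 0 to 2 members between the zones (both highest without outer tissue 2), 1592 to 2518 genes between outer P3 cells and outer tissue, and 0 to 15 genes and 0 to 1 members in the interaction (both highest without outer tissue 2). Signs also turned among log2 fold changes that were not called. For tissue against cartilage these were ITGAV at -0.54 to 0.014 (inner), ITGA10 at -0.42 to 0.011 and ITGA8 at -0.78 to 0.69 (outer). Between the zones they were ITGB1 at -0.047 to 0.25, ITGAV at -0.54 to 0.0051 and ITGB3 at -0.10 to 0.68, and between P3 zones ITGA8 at -0.27 to 0.12 and ITGA11 at -0.97 to 0.30. ITGB5 ran from -0.79 to 0.15 in outer P3 cells against outer tissue and from -0.14 to 0.33 in P3 cells against cartilage, where ITGA1 ran from -0.21 to 0.078. In the interaction ITGB3 ran from -0.32 to 0.63, ITGAV from -0.13 to 0.42 and ITGB1 from -0.11 to 0.19.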
